A study of Mus musculus with 18 samples.

Results

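Microglia carry a set of inhibitory receptors whose ligands sit on neurons and other neighbouring cells, and 9 genes of these ligand and receptor pairs were followed here through TRAP-RNAseq of the mouse brain after systemic lipopolysaccharide (LPS). They were picked by name from the 36172 genes of the count table, with earlier results of these data known, and comprised the ligands Cd200, Cd47 and Cd274 and the receptors Cd200r1, Sirpa, Cd22, Cd33, Havcr2 and Lair1. All 9 were among the 14803 genes that passed the filter on low counts (over 20 normalised counts in every library of at least 1 group). Every mouse was Cx3cr1-Cre/Ert2+; NuTRAP+, heterozygous for both alleles, about 3 months old, and had received tamoxifen 3 to 4 weeks before treatment. In this line Cre, once activated by tamoxifen, turns on a ribosomal protein fused to EGFP wherever the Cx3cr1 promoter is active, so the tag can mark microglia and also other Cx3cr1-expressing cells, such as macrophages at the borders of the brain. Blood monocytes express Cx3cr1 too, and the wait after tamoxifen was meant to let short-lived tagged monocytes be replaced by untagged ones. Mice received 5 mg/kg LPS or PBS intraperitoneally, and 24 h later a homogenate of 1 brain hemisphere was sampled before (input) and after anti-GFP capture of tagged ribosomes (positive fraction). There were 4 PBS libraries of each fraction, 5 LPS libraries of the positive fraction and 4 of input that could be used, each from a separate animal within its group, with 22968939 to 35123345 counts per library. The input library of animal 271 held 1252 counts in all and none of the 9 genes, and was left out. Sex was not balanced between treatments, with 6 females and 3 males. The males were animal 267 under LPS and animals 272 and 273 under PBS.

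An inhibitory receptor of this kind dampens activation of the cell that carries it. Many bear tyrosine motifs in the cytoplasmic tail that, once phosphorylated, recruit phosphatases such as SHP-1 (Ptpn6) and SHP-2 (Ptpn11). CD200 and CD47 are widely expressed surface proteins, in the brain prominent on neurons, that engage CD200R1 and SIRPα on myeloid cells, and CD47 binding to SIRPα is known as a signal that restrains phagocytosis. CD22 and CD33 are Siglecs, which bind sialic acid on glycoproteins and glycolipids. PD-L1 (Cd274) is the ligand of PD-1, TIM-3 (Havcr2) binds galectin-9 among others, and LAIR1 binds collagens and the complement protein C1q.

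Microglial transcripts were concentrated in the positive fraction. All 10 microglial marker genes (Cx3cr1, P2ry12, Tmem119 and others) were higher in the positive fraction than in input under PBS, with a median log2 fold change of 4.22, and under LPS, with a median of 4.03. Their summed level was 197530 to 243861 normalised counts in Positive PBS and 157852 to 218495 in Positive LPS, with the lowest value in animal 266. Transcripts of other cells were present as well. All 7 border macrophage markers (median log2 fold change 3.87) and 7 of 8 endothelial markers (median 1.46) were higher in the positive fraction than in input under PBS, where 21% of all genes tested were higher. The 7 oligodendrocyte markers were lower in the positive fraction under PBS (median -2.07), while the 9 neuronal markers in the table had a median of 0.04 and summed to 210291 to 243127 normalised counts in Positive PBS against 204649 to 217239 in Input PBS. Neutrophil markers summed to 145.3 to 317.4 in Positive PBS against 469.6 to 820.7 in Input PBS. Under LPS they summed to 430.1 to 1156 in the positive fraction against 766.8 to 1645 in input. Of 6 neutrophil markers tested, 4 were lower in the positive fraction than in input under PBS and 0 higher. Ly6g and Elane were below a mean of 3 counts in every group. The 7 listed B cell genes summed to 134.2 to 154.5 counts in Input PBS, 1151 to 1393 in Positive PBS and 828.9 to 1426 in Positive LPS. Most of that sum was Blnk, with a mean of 1153 in Positive PBS, while Ms4a1 and Ighm had means under 3 in all 4 groups. The 9 listed T and NK cell genes summed to 274.2 to 383.2 in Positive PBS and 175.0 to 253.7 in Positive LPS, with Cd3e, Cd3g, Trbc1, Trbc2 and Ncr1 at means under 3 in all 4 groups.

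Cd274 showed the largest LPS effect of the 9 genes. Its promoter is shown for a letter match to GAAANNGAA, a pattern like the interferon-stimulated response element. The gene is at chr19:29367438-29388094 of mm10, on the plus strand. The 250 bases before its start (RefSeq, GRCm38.p6, chr19:29367188-29367437, plus strand, 5′ to 3′) carry a match to GAAANNGAA, read on the strand opposite to the gene and set in capitals, that begins 76 bases before the start.
Cd274: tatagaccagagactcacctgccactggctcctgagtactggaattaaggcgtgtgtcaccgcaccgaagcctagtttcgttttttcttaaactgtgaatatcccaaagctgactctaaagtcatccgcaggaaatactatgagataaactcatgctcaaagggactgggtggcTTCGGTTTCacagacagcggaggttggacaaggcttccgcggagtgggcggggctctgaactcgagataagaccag
Havcr2, the receptor most enriched in the positive fraction, is at chr11:46454931-46481254 on the plus strand, and its promoter is shown for a match to GAGGAAGT, a sequence bound by the myeloid factor PU.1, that begins 8 bases before the start (RefSeq, GRCm38.p6, chr11:46454681-46454930).
Havcr2: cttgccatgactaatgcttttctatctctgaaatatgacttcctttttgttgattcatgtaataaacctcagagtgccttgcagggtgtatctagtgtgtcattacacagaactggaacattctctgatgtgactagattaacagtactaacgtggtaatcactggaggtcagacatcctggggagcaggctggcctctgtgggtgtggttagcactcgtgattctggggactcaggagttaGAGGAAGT
Promoters of 300 bases (250 before to 50 after the start) were found for 7 of the 9 genes. Both strands were searched for GAAANNGAA, TTCNNNGAA (a pattern like the interferon-gamma activated site), GAGGAAGT and the kB motif. These were present in 8.56%, 8.3%, 3.2% and 8.46% of all 32851 promoters. The matches in Cd274 and Havcr2 were the ones found among the 7 genes. A match of letters is not evidence of binding.

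The ligands were measured first across fractions, and without LPS none of the 3 was concentrated in the tagged ribosomes. Of the 9 genes 6 were higher in the positive fraction than in input under PBS, where 39.8% of all genes tested differed in either direction (3113 higher, 2785 lower). The 6 were the receptors, of which Cd200r1 passed the filter on low counts only through the positive fraction. Cd200, Cd47 and Cd274 had log2 fold changes of 0.12 (SE 0.16, adjusted p = 0.576), 0.00 (SE 0.14, adjusted p = 0.981) and 0.17 (SE 0.23, adjusted p = 0.581). A gene was called when the adjusted p of edgeR's quasi-likelihood test was under 0.05 and the higher group exceeded the lower by more than 25%. The median log2 fold change of the 9 genes was 2.86 and that of all genes tested was near 0.

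Havcr2 had the largest difference among the receptors. Its normalised read counts were 161.8, 154, 153 and 147.6 in Input PBS (animals 268, 272, 273 and 506) and 3302, 2764, 2773 and 3108 in Positive PBS. Each positive library stood far above its own input, 19.4-fold on average (log2 4.28, SE 0.28, adjusted p = 6.59e-10). Cd33 followed at 12-fold (log2 3.58, SE 0.30, adjusted p = 1.71e-08), with 106.5 to 125.4 counts in Input PBS and 1319 to 1468 in Positive PBS. Lair1, the collagen and C1q receptor, was 11.6-fold higher (log2 3.54, SE 0.16, adjusted p = 2.8e-12).

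Cd200r1 and Cd22 were enriched from low levels. Cd200r1, the receptor of CD200, had 8.26 to 9.53 normalised counts in Input PBS and 48.0 to 87.9 in Positive PBS, which was 7.71-fold (log2 2.95, SE 0.35, adjusted p = 1.93e-06). Cd22 had 18.7 to 29.2 counts in Input PBS and 98.3 to 223.8 in Positive PBS, which was 7.25-fold (log2 2.86, SE 0.22, adjusted p = 6.73e-09). Cd22 is best known from B cells. Both B cell genes that passed the filter were higher in the positive fraction too, Cd79b by 4.12 (SE 0.30, adjusted p = 2.87e-09) and Blnk by 3.23 (SE 0.18, adjusted p = 4.01e-11) on the log2 scale, and the part of B cells in the Cd22 values was not tested. Sirpa, the receptor of CD47, was enriched least of the receptors. It was 1.6-fold higher in the positive fraction (log2 0.67, SE 0.08, adjusted p = 2.7e-06), with no overlap between the 4 input libraries (11508 to 12143) and the 4 positive libraries (18029 to 19983). The median log2 fold change of the microglial markers was 4.22 in this comparison. The part of other cells in the Sirpa values was not tested.

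**Figure D1:**
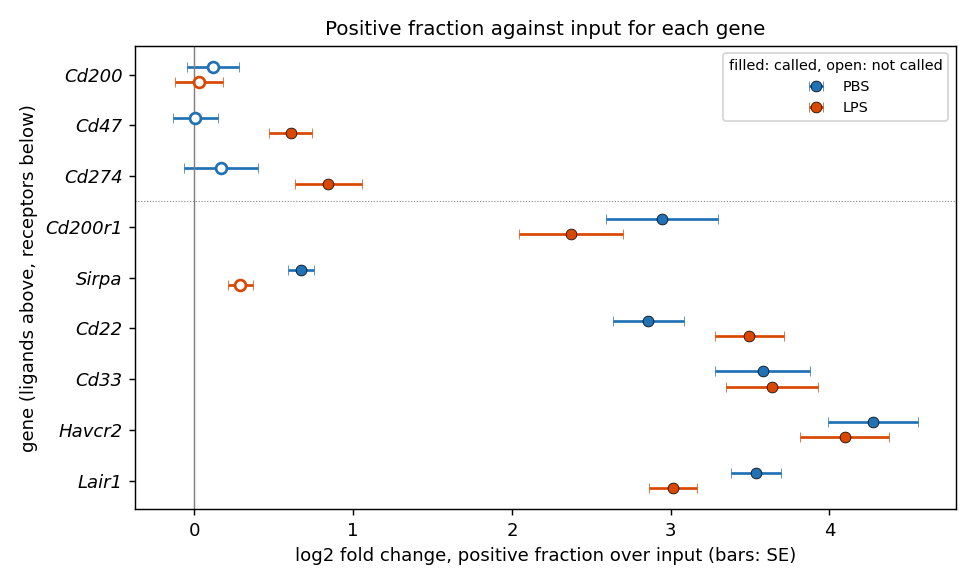
Log2 fold change of the positive fraction over input (horizontal axis) for each gene (vertical axis) under PBS (blue) and LPS (orange), as the fitted value with its SE; open points did not pass the threshold. The 6 receptors lie to the right of 0 under PBS, and the 3 ligands lie near 0.

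Compared per kilobase of exon, so that genes of unlike length can be set side by side, Sirpa was the most abundant of the 9 in every group. In Positive PBS it had 3862 ± 163 (SD, n = 4) normalised counts per kb. Havcr2 (1098 ± 97.2) and Cd200 (807 ± 161) came next, followed by Lair1 (365 ± 25.8), Cd47 (328 ± 46.6) and Cd33 (180 ± 8.22). The ranges of 1 SD around the means of Lair1 and Cd47 overlapped. Cd274 (53.8 ± 8.16), Cd22 (33.6 ± 10.4) and Cd200r1 (20.7 ± 4.90) were lowest. In Positive LPS Cd47 (512 ± 123, n = 5) stood above Lair1 (271 ± 53.5), while Cd33 (284 ± 126.3) overlapped both within 1 SD. Cd274 reached 220 ± 79.8, within the spread of Lair1, and Havcr2 (881 ± 364) and Cd200 (765 ± 188) overlapped as well. In Input PBS the receptors other than Sirpa were at or below 56.7 per kb (Havcr2), under the ligands Cd200 (744 ± 122) and Cd47 (327 ± 23.8). Reads of Cd200r1, Sirpa and Cd33 may in part be shared with close relatives of each gene (Cd200r and Sirpb family members and other Siglecs), so their levels are less certain than those of Cd47, Cd274 or Lair1.

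**Figure D2:**
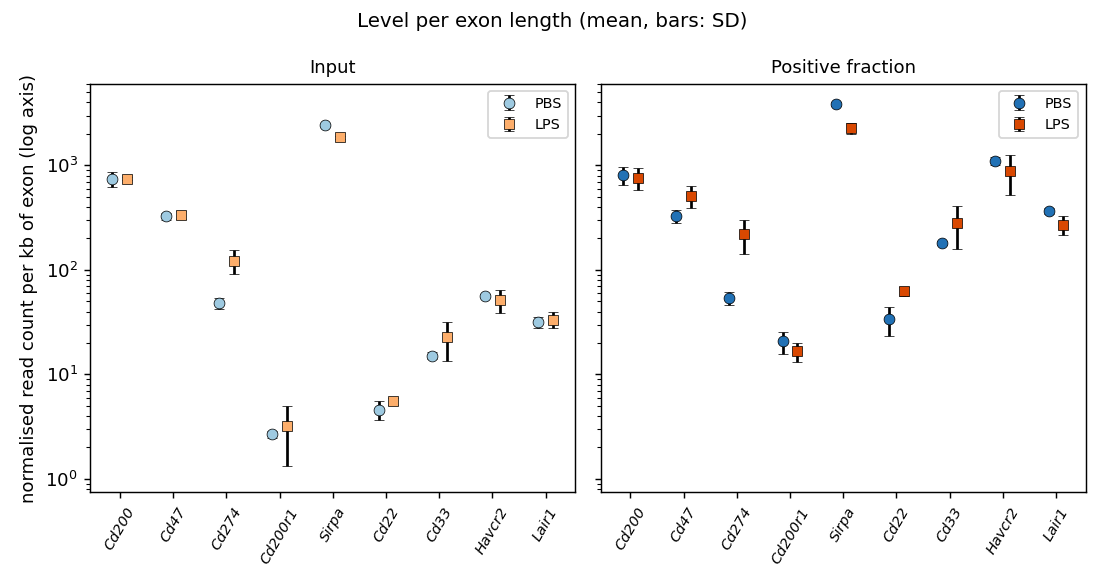
Mean normalised read count per kilobase of exon (log axis, bars are SD over 4 or 5 libraries) for each gene in input (left) and in the positive fraction (right), PBS as circles and LPS as squares. Sirpa is highest in all 4 groups, and Cd200r1 is lowest in all 4.

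LPS moved the genes in different directions in the positive fraction. Of the 9 genes 6 changed, 4 higher (Cd274, Cd22, Cd33 and Cd47) and 2 lower (Sirpa and Lair1), where 33.8% of all genes tested changed (2810 higher, 2199 lower). The median log2 fold change of the 9 was -0.08, against 0.01 over all genes tested. For groups said not to overlap, here or in other comparisons, the share of all genes that do the same was not counted. With bulk libraries, fewer cells of a type and less RNA per cell cannot be told apart, and the same holds for higher values.

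Cd274, which encodes PD-L1, rose the most. Its normalised counts were 185.5, 237.9, 186.3 and 170.4 in Positive PBS (animals 268, 272, 273 and 506) and 795.2, 589.2, 732.2, 1289 and 585.1 in Positive LPS (animals 266, 267, 270, 271 and 507). The lowest LPS library was above the highest PBS library, and animal 271 stood above the other LPS animals. The difference was 4.08-fold (log2 2.03, SE 0.23, adjusted p = 1.56e-06), and without animal 271 the log2 fold change was 1.79.

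Cd47 and its receptor Sirpa moved apart. Cd47 had 1858, 1928, 1956 and 2493 normalised counts in Positive PBS and 2751, 2797, 3506, 4436 and 2579 in Positive LPS. The groups did not overlap, although the PBS library of animal 506 came close to the lowest LPS library, and the rise was 1.56-fold (log2 0.64, SE 0.14, adjusted p = 0.00103).
Sirpa had 18029, 19983, 18914 and 18946 counts in Positive PBS and 9223, 11537, 13077, 10724 and 11172 in Positive LPS. Every LPS library was well below every PBS library. Sirpa fell by 0.77 on the log2 scale (SE 0.08, adjusted p = 5.13e-07), to a level 1.7-fold lower.

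Among the Siglecs, Cd22 rose in every LPS animal. Its counts were 184.6, 223.8, 98.3 and 170.2 in Positive PBS and 277, 315.9, 317.2, 364.5 and 295.5 in Positive LPS, with no overlap. The rise was 1.85-fold (log2 0.89, SE 0.19, adjusted p = 0.000975). Of the 7 listed B cell genes 2 passed the filter, and Cd79b was called higher (log2 1.35, adjusted p = 9.63e-05) while Blnk was not (log2 -0.28, adjusted p = 0.135).

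Cd33 gave a less even picture. It had 1468, 1432, 1388 and 1319 counts in Positive PBS and 1447, 1626, 3616, 2867 and 1487 in Positive LPS. Animals 270 and 271 were far above the PBS range, while the other LPS animals lay within it or a little above it. The fitted rise was 1.58-fold (log2 0.66, SE 0.25, adjusted p = 0.0435). It did not pass the threshold under 13 of 25 alternatives (adjusted p from 0.0173 to 0.144 over the 25), among them without Positive LPS animal 270 (log2 0.41, adjusted p = 0.144), without Positive LPS animal 271 (log2 0.55, adjusted p = 0.102), with sex as a covariate (log2 0.59, adjusted p = 0.082) and with the positive libraries fitted alone (adjusted p = 0.0685).

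Lair1 fell by 0.43 on the log2 scale (SE 0.13, adjusted p = 0.0145), to a level 1.35-fold lower. Its counts were 2677, 3016, 2609 and 2620 in Positive PBS and 1763, 2478, 1885, 1588 and 2420 in Positive LPS. The groups did not overlap, but animals 267 and 507 were close to the PBS range. Without Positive PBS animal 272, the highest library, the log2 fold change was -0.38 and the adjusted p 0.0517.

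Cd200, Cd200r1 and Havcr2 did not pass the threshold. Cd200 differed by -0.08 on the log2 scale (95% interval -0.41 to 0.25, adjusted p = 0.71), and its LPS libraries (1865 to 3566) spanned the PBS range (2237 to 3361). Cd200r1 differed by -0.31 (interval -0.92 to 0.29, adjusted p = 0.393) at 38.7 to 68.6 counts under LPS. Havcr2 differed by -0.32 (interval -0.81 to 0.18, adjusted p = 0.28). The 5 LPS animals had 1080, 2875, 3708, 1897 and 2421 Havcr2 counts, with a coefficient of variation of 41.4% against 8.85% among the PBS animals. Animal 266 was lowest and animal 270 highest, and these 2 libraries lay on opposite sides of the PBS range of 2764 to 3302. Animal 266 also had the lowest summed microglial markers, and the part this had in the Havcr2 values was not tested.

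**Figure D3:**
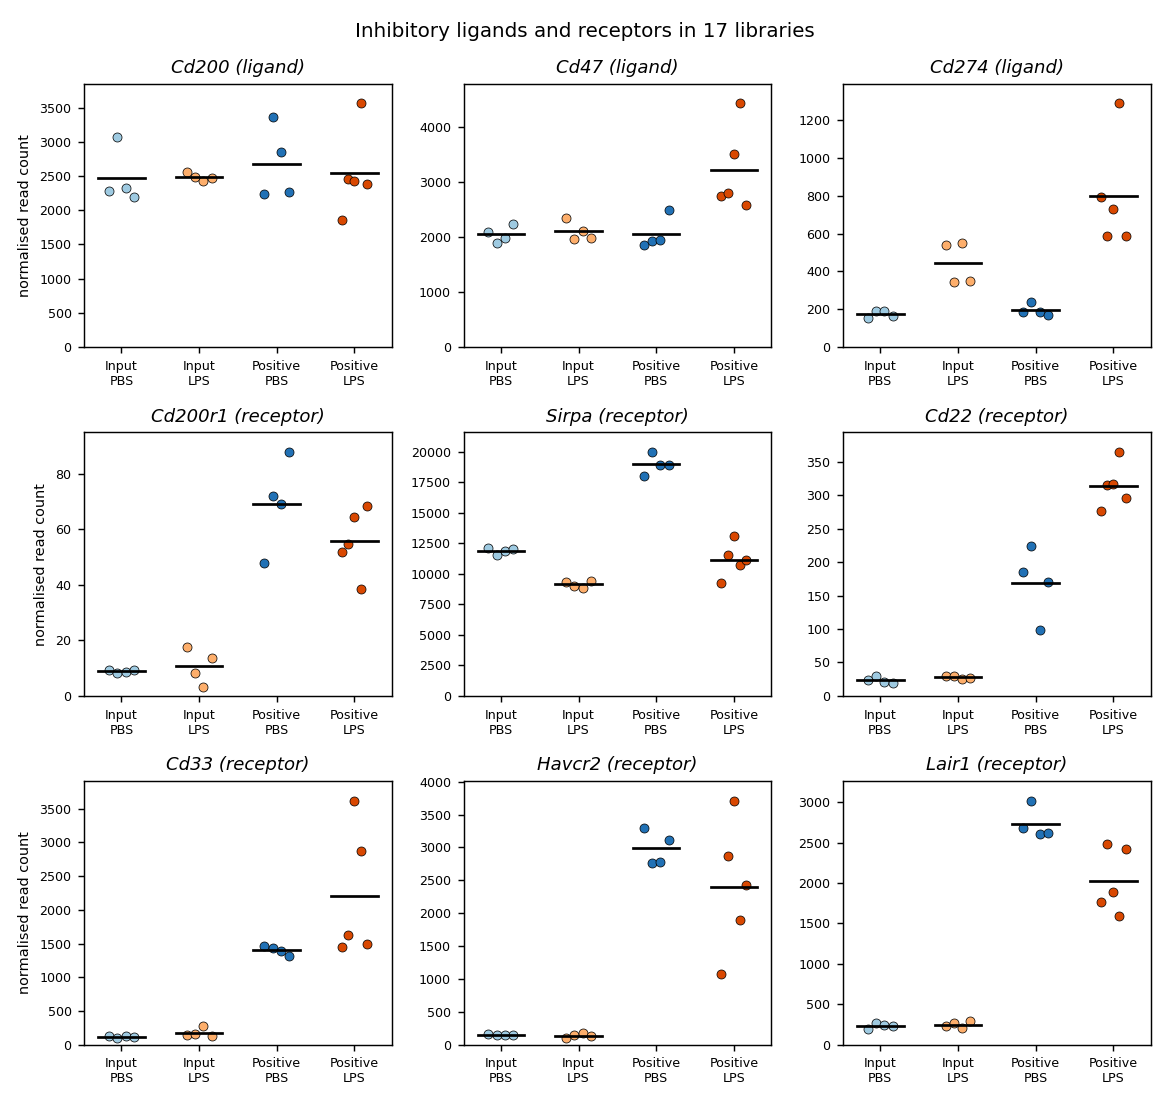
Normalised read count (vertical axis, from 0) of each gene in each of the 17 libraries, by fraction and treatment; each point is 1 library and the line is the group mean. Cd274, Cd47 and Cd22 are higher and Sirpa and Lair1 lower in all 5 Positive LPS libraries than in all 4 Positive PBS libraries. Of all genes tested 33.8% were called in this comparison, and the share separated in this way was not counted.

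In input, which holds RNA of all brain cells, fewer of the genes changed. Of the 9 genes 2 passed the threshold, where 12.4% of all genes tested did. Cd274 rose 2.55-fold (log2 1.35, SE 0.23, adjusted p = 0.000491), from 151.5, 188.8, 191.5 and 164.5 counts in Input PBS to 538.2, 343.6, 547.8 and 348.4 in Input LPS (animals 266, 267, 270 and 507). Every LPS library was above every PBS library. Sirpa fell by 0.38 on the log2 scale (SE 0.08, adjusted p = 0.00385), with 11508 to 12143 counts under PBS and 8820 to 9405 under LPS. Its adjusted p was 0.05 without animals 506 and 507, whose numbers stand apart from the others, and 0.0618 with all 18 libraries.

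The remaining genes did not pass in input. Cd47 differed by 0.04 (interval -0.27 to 0.35, adjusted p = 0.888), Cd200 by 0.01 (interval -0.34 to 0.36, adjusted p = 0.975) and Lair1 by 0.09 (interval -0.23 to 0.42, adjusted p = 0.74). Cd33 differed by 0.60 (interval -0.04 to 1.23, adjusted p = 0.195), with 1 high library, animal 270 at 283 counts. Cd22 differed by 0.25 (interval -0.27 to 0.76, adjusted p = 0.537) and Havcr2 by -0.14 (interval -0.74 to 0.46, adjusted p = 0.793). Cd200r1 had 3.28 to 17.5 counts in Input LPS, close to the 3 counts taken as the limit of detection, and its difference of 0.26 had an interval from -0.59 to 1.11 (adjusted p = 0.714).

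**Figure D4:**
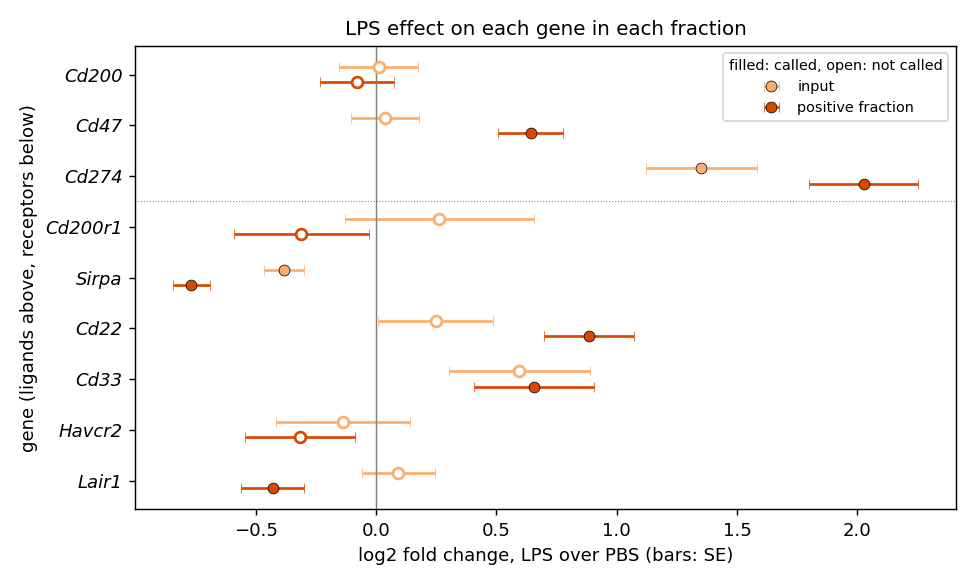
Log2 fold change of LPS over PBS (horizontal axis) for each gene (vertical axis) in input (light orange) and in the positive fraction (dark orange), as the fitted value with its SE; open points did not pass the threshold. Cd274 lies farthest to the right and Sirpa farthest to the left among the called values in both fractions.

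Whether the LPS effect differed between fractions was tested as an interaction. It passed for 1 of the 9 genes, against 6.88% of all genes tested. Sirpa fell more in the positive fraction than in input (difference -0.39, SE 0.11, adjusted p = 0.0467), and this call was lost under 19 of 25 alternatives (adjusted p from 0.00756 to 0.371 over the 25). Every omission of a single library lost it except that of Positive LPS animal 270. Input and positive libraries of the same number come from the same animal. With the animal as a block in edgeR, 4 of the 9 passed, namely Sirpa (-0.38, adjusted p = 0.0415), Cd47 (0.46, adjusted p = 0.0148), Lair1 (-0.45, adjusted p = 0.0149) and Cd274 (0.46, adjusted p = 0.0481). That fit also called more of the 14803 genes tested, 1915 against 1019 without the block. With the animal correlation estimated in limma-voom 2 of the 9 passed, Sirpa (adjusted p = 0.00874) and Cd47 (adjusted p = 0.0182), while Lair1 (adjusted p = 0.0847) and Cd274 (adjusted p = 0.176) did not. In limma-voom 1985 of the 14803 genes tested passed. Animal 271 has no usable input, so its positive library does not bear on the values with the animal as a block in edgeR. This does not hold for the limma-voom values. Without the block, Cd47 had a difference of 0.60 (adjusted p = 0.0744), Lair1 -0.52 (adjusted p = 0.14), Cd274 0.68 (adjusted p = 0.24) and Cd22 0.64 (adjusted p = 0.252). The differences for Cd200 (-0.09), Cd200r1 (-0.57), Cd33 (0.06) and Havcr2 (-0.18) had adjusted p-values of 0.881, 0.579, 0.958 and 0.846.

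Under LPS the genes enriched in the positive fraction included ligands. Of the 9 genes 7 were higher in the positive fraction than in input. Of all genes tested 53.4% differed in this comparison, 27.6% higher and 25.8% lower. Cd47 was 1.52-fold higher (log2 0.61, SE 0.14, adjusted p = 0.000848) and Cd274 1.79-fold higher (log2 0.84, SE 0.21, adjusted p = 0.00229). Cd200 was at 0.03 (SE 0.15, adjusted p = 0.881). The receptors Havcr2 (log2 4.10), Cd33 (3.64), Cd22 (3.50), Lair1 (3.01) and Cd200r1 (2.37) stayed enriched. Sirpa had a log2 fold change of 0.29 (adjusted p = 0.00408) at 1.22-fold, which is under the 25% minimum. These comparisons share libraries with the LPS comparisons above and are not independent of them.

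The balance within a pair was also taken as a ratio inside each library, which does not depend on scaling between libraries. A ratio of bulk counts does not show which cells either transcript came from. Sirpa per kb exceeded Cd47 per kb by 12.4, 13.2, 12.3 and 9.71-fold in Positive PBS and by 4.28, 5.27, 4.76, 3.09 and 5.53-fold in Positive LPS. No LPS library reached the lowest PBS library. The mean log2 ratio of counts was 3.21 ± 0.20 (SD, n = 4) under PBS and 1.82 ± 0.34 (n = 5) under LPS, a difference of -1.40 (exact two-sided permutation test, p = 0.0159, the smallest this design allows). In input the ratio differed by -0.42, from 2.54 ± 0.08 to 2.12 ± 0.12 (n = 4 each, exact permutation p = 0.0286, again the smallest possible). Over the 4 ratio tests the adjusted p was 0.0572 for both of these exact permutation tests. The Cd200r1 over Cd200 ratio differed by -0.22 in the positive fraction (exact permutation p = 0.603) and by 0.00 in input (exact permutation p = 1), where Cd200r1 counts were few.

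**Figure D5:**
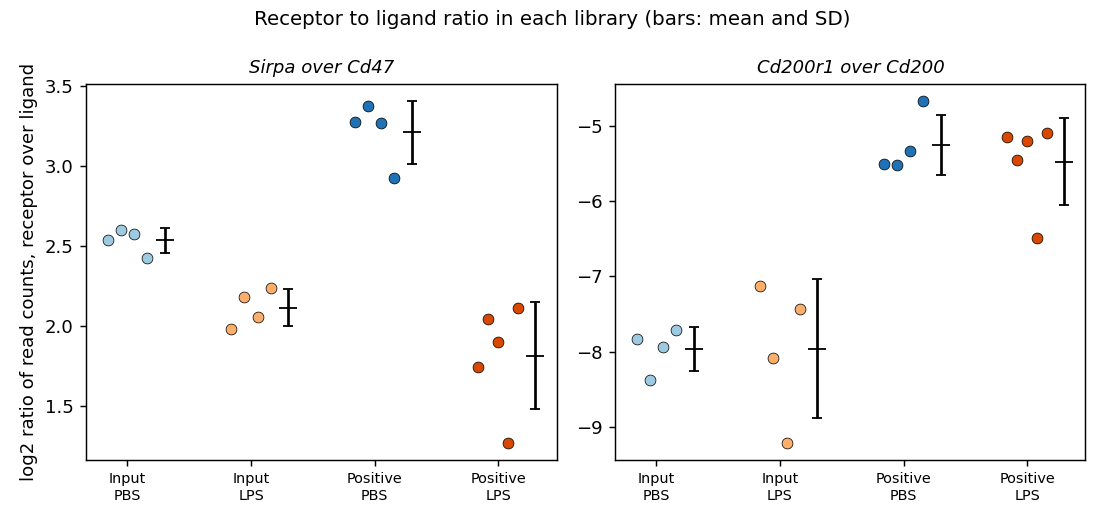
Log2 ratio of receptor counts over ligand counts in each library (vertical axis), for Sirpa over Cd47 (left) and Cd200r1 over Cd200 (right), by fraction and treatment; points are libraries and bars are the mean and SD. The Sirpa over Cd47 ratio is lower in all 5 Positive LPS libraries than in all 4 Positive PBS libraries, while the Cd200r1 over Cd200 ratios overlap.

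The signalling partners of these receptors included several that rose. Of 13 genes listed for signalling below inhibitory receptors, 6 rose in the positive fraction, with a median log2 fold change of 0.22 over the 13. Of all genes tested 19% rose and 14.9% fell in this comparison. Ptpn6, the gene of the phosphatase SHP-1, rose from a mean of 2847 to 9024 normalised counts (log2 1.66, SE 0.21, adjusted p = 8.21e-06). Dok2, an adaptor used by CD200R1, rose from 50.1 to 187.4 (log2 1.90, SE 0.22, adjusted p = 3e-06), and Fyb, an adaptor that binds SKAP proteins, by 1.38 (SE 0.24, adjusted p = 0.00017). Ptpn11, the gene of SHP-2, had 0.06 (adjusted p = 0.535) and Inpp5d, the lipid phosphatase SHIP1, 0.09 (adjusted p = 0.616). In input 4 of the 13 rose, where 7.16% of all genes tested did.

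Of 19 genes listed as other ligands and partners, 17 were tested, and 9 rose and 1 fell in the positive fraction (median log2 0.53), where 19% of all genes tested rose and 14.9% fell. They included Cd52, a small glycoprotein known as a Siglec ligand (log2 1.81, SE 0.32, adjusted p = 0.000233), the basement membrane collagen Col4a1 (log2 1.17, SE 0.18, adjusted p = 6.25e-05) and Lgals9, the galectin-9 ligand of TIM-3 (log2 0.86, SE 0.12, adjusted p = 2.35e-05). Lgals9 rose from a mean of 2217 to 4037 counts. Cd24a fell by 0.57 (SE 0.17, adjusted p = 0.0127). The C1q chains, which LAIR1 binds, were at 0.49 for C1qa (adjusted p = 0.0065) and 0.52 for C1qb (adjusted p = 0.00199), and at 0.23 for C1qc (adjusted p = 0.178). Pdcd1, the gene of PD-1, had mean counts of 29.2 in Positive PBS and 11.9 in Positive LPS (log2 -1.30, SE 0.55, adjusted p = 0.0673).

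The largest changes among other inhibitory receptors exceeded those of the 9 genes. Of 27 listed symbols, 24 matched a gene in the data and 18 were tested. Of these 18, 10 rose and 5 fell in the positive fraction (median log2 1.75), against the same 19% and 14.9% over all genes. Cd72 rose from a mean of 103.5 to 4025 counts (log2 5.28, SE 0.38, adjusted p = 8.07e-09), Cd300lf from 61.4 to 2314 (log2 5.24, SE 0.40, adjusted p = 1.83e-08) and Cd244 from 15.4 to 375 (log2 4.60, SE 0.18, adjusted p = 4.01e-12). Siglec5 fell by 1.93 (SE 0.30, adjusted p = 6.9e-05), the MHC class II receptor gene Lag3 by 0.93 (SE 0.18, adjusted p = 0.000546) and 4632428N05Rik, the gene of VISTA, by 0.89 (SE 0.13, adjusted p = 3.28e-05). VISTA counts went from a mean of 17460 to 9400.

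Among genes of sialic acid synthesis, transfer and removal, from which the ligands of CD22 and CD33 are made, 1 of 16 rose and 3 fell in the positive fraction (median log2 -0.15). These 4 of 16 are no larger a share than the 33.8% of all genes tested that changed. Nans, a sialic acid synthase, rose by 0.65 (SE 0.10, adjusted p = 8.13e-05). The sialyltransferases St3gal6, St6gal1 and St3gal2 fell by 0.79, 0.54 and 0.43 (adjusted p = 1.24e-05, 0.000115 and 7.8e-05). St6gal1 makes the linkage of sialic acid that CD22 binds.

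Genes of the interferon and NF-kB routes that can act on Cd274, with the PD-L1 stabiliser Cmtm6, were listed as 16, of which 14 were tested. In the positive fraction 10 rose and 1 fell (median log2 0.44), beside 19% and 14.9% of all genes tested. Stat3 rose by 1.03 (SE 0.12, adjusted p = 3.65e-06), Irf9 by 0.91 (SE 0.09, adjusted p = 4.93e-07) and Nfkb1 by 0.84 (SE 0.14, adjusted p = 0.000111). Cmtm6 fell by 0.95 (SE 0.09, adjusted p = 1.76e-07), from a mean of 8278 to 4282 counts. Ifng and Ifnb1 themselves had means under 3 counts in every group.

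From the list that held relatives of the 9 genes, 12 genes were found and 4 passed the filter on low counts. In the positive fraction 1 rose, 2 fell and 1 was not called, beside 19% higher and 14.9% lower over all genes tested. Siglec1, sialoadhesin, rose by 2.53 (SE 0.30, adjusted p = 2.81e-06), Siglech fell by 1.77 (SE 0.28, adjusted p = 7.32e-05), and Timd4 fell by 1.40 (SE 0.35, adjusted p = 0.00352).

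Across the 17 libraries the genes whose levels ran most like each member were found by Pearson's r of log2 normalised counts among 13656 tested genes with a mean of at least 50 counts. The points share animals, fraction and treatment, and r is given as a description. Lair1 ran closest to Ctsa, F11r and Cx3cr1 (each 0.995), Havcr2 to Lrp5 (0.994), Ptgs1 and Il10ra (both 0.993), and Cd33 ran close to Cd53 and Fcgr3 (both 0.989). Cd22 ran closest to Klhl6 (0.988), Plek and Snx18 (both 0.987), Sirpa to Slc2a5 (0.979), Efnb1 and Cxxc5 (both 0.973), and Cd200r1 to Folr2 (0.968), Pon3 (0.966) and St3gal1 (0.965). Of the ligands, Cd274 ran closest to the interferon-induced genes Mx1 (0.974) and H2-Q4 (0.961), with Plaa (0.965) between them. Cd47 ran closest to Azin1 (0.941), Ints12 and L3mbtl2 (both 0.917), and Cd200 to Slc35e3 (0.829), Pgrmc1 (0.827) and Rit2 (0.823).

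Some markers of other cells also moved with LPS in the positive fraction, where 19% of all genes tested rose and 14.9% fell. The part of these cells in the values above was not tested. Of the 10 microglial markers 2 rose (Itgam 0.85, C1qa 0.49) and 5 fell (P2ry12 -2.47, Fcrls -1.34 and Tmem119 -0.86 the most). Of 7 border macrophage markers 1 rose (Siglec1 2.53) and 5 fell (Cd209f -3.49, Lyve1 -2.39 and Cbr2 -1.36 the most), and their summed counts were 3712 to 7732 in Positive PBS and 3349 to 4794 in Positive LPS. Of 6 neutrophil markers tested 5 rose (S100a8 4.73, Mmp8 3.22 and Ngp 2.45 the most). Of 4 monocyte markers tested Hp rose (5.79) and Ccr2 (-2.33) and Fn1 (-0.79) fell, with sums of 1168 to 2902 under PBS and 1158 to 3068 under LPS. Of 9 neuronal markers tested 5 fell (Tubb3 -0.54, Stmn2 -0.52 and Nefl -0.49 the most), and the sums were 210291 to 243127 under PBS and 157540 to 217394 under LPS. Of 8 astrocyte markers Gfap rose (1.95) and Kcnj10 (-0.66) and Gja1 (-0.56) fell, with sums of 137573 to 188416 and 139816 to 160957. Of 8 endothelial markers Cldn5 rose (0.51) and 3 fell (Tek -1.86, Flt1 -1.29 and Kdr -0.85), with sums of 6496 to 10009 and 5917 to 9905. Of 7 oligodendrocyte markers Opalin (-1.35) and Mog (-1.28) fell, and Cd4 (-0.57) was the T and NK cell gene that passed the filter.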

How the data were processed

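RNA of input and positive TRAP fractions was prepared with a directional kit and sequenced. The authors trimmed and aligned reads to mm10 in Strand NGS, keeping reads in the proper orientation, and deposited estimated counts per gene (81.7% of nonzero values are not whole), together with log2 values normalised by the DESeq algorithm, which were not used. The submitters' processing notes name DESeq and mm10. Columns were matched to samples by animal and fraction.

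Estimated counts were rounded, scaled by median-of-ratios size factors (0.766 to 1.32) and filtered to over 20 normalised counts in every library of at least 1 group. All 17 libraries were fitted with a mean per group in edgeR 4.0.16 (quasi-likelihood test), and p-values were adjusted by Benjamini-Hochberg over the 14803 genes tested. The study's own thresholds were kept (adjusted p under 0.05, change over 25% of the lower group). Alternatives used DESeq2 1.42.0, limma 3.58.1, TMM scaling, no filter, sex as a covariate, all 18 libraries, the animal as a block, and each library left out. Ratios used log2 of counts plus 1. R 4.3.3 and scipy 1.17.1 were used. Exon lengths came from GENCODE M21.

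The members and lists were chosen with earlier results of these data known. All 9 members are named, and from each other list up to 3 called genes in each direction with the largest change in the positive fraction (others named, such as Ptpn11, Inpp5d, C1qb, C1qc, Pdcd1 and Blnk, were chosen after their values were seen). The nearest 3 genes are given per member, except that a few genes are not reported here. Input and positive libraries pair by animal in the labels, and their deviations from the group means correlated at 0.162 to 0.519 in 8 animals. With total counts from 22968939 to 35123345, low genes such as Cd200r1 in input rest on few counts.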

Additional observations from a re-analysis of the deposited data

Results flagged for a closer look

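In 4 of 36 combinations of gene and group, the highest library lay far from the others by Dixon's test at its 95% value, which chance does in about 1 of 20 groups. Cd200 was high in Input PBS animal 272 (3075 normalised counts, against 2197 to 2325 in the other animals). Cd47 was high in Positive PBS animal 506 (2493, against 1858 to 1956). Cd33 was high in Input LPS animal 270 (283, against 131.3 to 153.7), the animal whose positive library was also highest for Cd33 (3616). Lair1 was high in Positive PBS animal 272 (3016, against 2609 to 2677), and without that library the adjusted p of its LPS effect was 0.0517. The LPS effect on Sirpa differed between the fractions by -0.386 on the log2 scale in the interaction test (adjusted p = 0.0467).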

How the results depend on the processing

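No member's called value changed direction under any alternative run: of 1143 values under alternatives, 1099 stayed on the same side of the threshold, 35 lost and 9 gained the call. In input, 1 rather than 2 genes of the 9 passed with all 18 libraries and without animals 506 and 507 (1074 genes over all, against 1839). For the difference between fractions, 1 of the 9 passed (1019 of all genes). In edgeR 5 of the 9 had an unadjusted p under 0.05. DESeq2 gave 2 calls. The edgeR fit called 0 of the 9 without the low-count filter, with all 18 libraries, and without animals 506 and 507 (323 of all genes). The paired fits gave 2 of the 9 and 1985 of all genes with the animal as a replicate block in limma-voom, and 4 and 1915 with the animal as a fixed replicate block in edgeR. The block changed no other member's call. Leaving out 1 library at a time gave 0 to 1 of the 9 for the difference, 4 to 6 for the LPS effect in the positive fraction, 2 in input, and 7 to 8 for positive over input under LPS, where Sirpa passed without Positive LPS animal 266. With the nearly empty input library of animal 271 included, the Sirpa over Cd47 difference in input was -0.844 and that of Cd200r1 over Cd200 1.594; that library has 0 counts of each gene, so the added value is set by the pseudocount. The cause of the other changes was not tested. Cd200r1 and Cd22 in input rest on few counts, and the part of depth in their values was not tested.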
